A study of Mus musculus with 6 samples.

Results

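The Nlrp oocyte gene family was examined in mouse embryonic stem cells (ESCs) that overexpress *Dppa3*. It was taken as 10 genes chosen by symbol, *Nlrp2*, *Nlrp4a*, *Nlrp4b*, *Nlrp4c*, *Nlrp4e*, *Nlrp4f*, *Nlrp5*, *Nlrp9a*, *Nlrp9b* and *Nlrp14*, out of 19489 genes measured. All 10 were found, and 7 of them had at least 10 reads in some library. The label calls them oocyte genes, but the cells are ESCs. The oocyte factors *Gdf9* and *Bmp15* and the zona pellucida genes *Zp1* and *Zp2* did not exceed 0.32 FPKM in any library. Other genes of the same marker list stood higher, *Kit* at 15.47 to 21.47 FPKM and the zona gene *Zp3* at 2.34 to 8.48 FPKM. The pluripotency factor *Pou5f1* lay between 311.64 and 682.98 FPKM.

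Nlrp proteins carry a nucleotide-binding NACHT domain followed by leucine-rich repeats. Some relatives, such as Nlrp3, build inflammasomes in immune cells. Many of the members followed here are known from oocytes and early embryos. Their messages are stored by the growing oocyte. Nlrp5, also called Mater, is a maternal effect protein of the subcortical maternal complex, a protein assembly beneath the oocyte and cleavage-stage embryo surface, and Nlrp2 has been linked to the same complex. Nlrp14 is known from germ cells and early embryos. In oocytes, less is established about the single Nlrp4 and Nlrp9 copies, of which the mouse has several.

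Messenger RNA was sequenced in 6 libraries, 3 of *Dppa3* OE ESCs (OE-1, OE-2 and OE-D7) and 3 of control ESCs (Con-1, Con-2 and Con-D7). By the study's methods, OE cells carried the *Dppa3* coding sequence behind a CAG promoter, and Con cells carried the empty vector. Dppa3 is a maternal protein that also counteracts maintenance DNA methylation. By the same methods, cells were grown in serum and LIF and selected with puromycin. For some transient transfections the study's supplement describes another vector, with neomycin selection. The study used the lines J1 and D3, and also E14 in its supplement. Which line was sequenced, and whether as stable or transient transfectants, is not stated. The sample labels name a different 129 substrain for each library, in sample order: 129S5/SvPas for OE-1, 129S6/SvPas for OE-2, 129S7/SvPas for OE-D7, 129S2/SvPas for Con-1, 129S3/SvPas for Con-2 and 129S4/SvPas for Con-D7. A number that climbs by 1 with each sample may be an entry error, which could not be settled here. If the labels are right, genotype and substrain cannot be told apart. The label D7 is not explained, and the libraries without it are called libraries 1 and 2. Libraries with the same number are called a pair, and the pair labelled D7 holds replicate 3 of each genotype.

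The libraries held 17408954 to 18176939 estimated counts. *Dppa3* itself stood at 278.79, 278.82 and 130.96 FPKM in OE-1, OE-2 and OE-D7, against 6.09, 3.89 and 26.22 FPKM in Con-1, Con-2 and Con-D7. OE exceeded Con 45.8-fold in pair 1, 71.7-fold in pair 2 and 4.99-fold in the D7 pair, so the contrast in *Dppa3* message, which does not separate transgene from endogenous gene, was smallest in the D7 pair, where OE was lower and Con higher than in the other pairs. The D7 libraries also stood apart in other ways. The summed level of 8 fibroblast markers was 179.24 FPKM in OE-D7 and 71.88 FPKM in Con-D7, against 32.26 to 56.38 FPKM in libraries 1 and 2, of which *Thy1* alone gave 20.97 FPKM in OE-D7 and 22.95 FPKM in Con-D7, against 30.84 to 52.99 FPKM in libraries 1 and 2. The summed level of 8 ESC markers was 1481.4 and 1820.5 FPKM in OE-D7 and Con-D7, against 2865.61 to 3101.01 FPKM. Of the 8, 4 (*Pou5f1*, *Esrrb*, *Klf4* and *Utf1*) were lower in D7 in edgeR, beside 3.06% of all genes tested.

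Of the members, 9 lie on mouse chromosome 7 and 1, *Nlrp4f*, on chromosome 13. In the GRCm38.p6 annotation *Nlrp4c* spans chr7:6045161-6105149 and *Nlrp14* chr7:107113455-107198103, and *Nlrp4f* spans chr13:65177111-65205716. The sequences just upstream of 3 annotated start sites are shown because *Nlrp4c*, the member with the largest OE against Con difference, has a promoter much like those of *Nlrp4a*, which was not higher in OE, and of *Nlrp4b*, which had almost no reads. Each run is 120 bases of RefSeq sequence on GRCm38.p6, plus strand, ending at the base before the start site, which for *Nlrp4a* and *Nlrp4b*, with 2 annotated windows each, is the one closest in sequence to *Nlrp4c* by alignment score. Capitals mark the longest stretch that all 3 have in common.
Nlrp4c chr7:6045041-6045160: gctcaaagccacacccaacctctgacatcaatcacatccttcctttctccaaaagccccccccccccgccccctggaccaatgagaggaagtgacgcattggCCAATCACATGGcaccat
Nlrp4a chr7:26435494-26435613: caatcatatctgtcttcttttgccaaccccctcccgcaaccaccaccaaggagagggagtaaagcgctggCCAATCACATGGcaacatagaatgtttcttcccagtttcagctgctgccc
Nlrp4b chr7:10687673-10687792: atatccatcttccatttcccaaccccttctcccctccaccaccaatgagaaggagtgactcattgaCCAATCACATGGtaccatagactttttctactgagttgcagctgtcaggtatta

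The shared stretch is 12 bases long and begins 18 bases before the start site in *Nlrp4c*, 50 in *Nlrp4a* and 54 in *Nlrp4b*. It occurred, on either strand, in 7 of 32851 mouse promoter windows of 300 bases (250 before to 50 after the start), which belong to 6 genes: these 3 and *Oscp1*, *Tmem52b* and *Dcxr*. Aligned over the 300-base windows, *Nlrp4c* matched *Nlrp4a* at 210 of 282 columns (74.5%) and *Nlrp4b* at 209 of 282 (74.1%). Such a match is a description of letters. The *Nlrp4c* window held 7 CG dinucleotides, equal to the median of 7 over all promoters, and 52.1% of all promoters had as many or more. That of *Nlrp4b* held 1, that of *Nlrp4f* 2, that of *Nlrp9b* 2 and that of *Nlrp4e* 0, while 1 of the 2 windows of *Nlrp5* held 9. Motifs were searched on both strands. The E-box letters CACGTG were in none of the members' windows and in 7.15% of all promoters. CCAAT, in 37.41% of all promoters, stood 3 times in the *Nlrp4c* window and is also how the shared stretch begins. TCCCGC, in 19.98% of all promoters, was in a window of *Nlrp2*, *Nlrp4a* and *Nlrp5*, and TAATTG, in 8.0%, in those of *Nlrp9a* and *Nlrp9b*. No window was on hand for *Nlrp14*.

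The transcripts of the family are alike enough to share reads. *Nlrp4c* and *Nlrp4e* were identical at 93.2% of aligned bases, *Nlrp4a* and *Nlrp4e* at 85.7%, *Nlrp4a* and *Nlrp4c* at 85.0%, and *Nlrp9a* and *Nlrp9b* at 83.5%. *Nlrp14* matched the other members at 55.9% to 59.8%. Counted in windows of 50 bases, 36.87% of *Nlrp4e* recurred exactly in another gene, 11.89% of *Nlrp4c*, 8.93% of *Nlrp5*, 7.13% of *Nlrp4f*, 6.22% of *Nlrp9b*, 3.04% of *Nlrp4a* and 0% of *Nlrp14*. The estimated counts of *Nlrp14* were whole numbers in every library, as were those of *Nlrp5*, while those of *Nlrp4a*, *Nlrp4c*, *Nlrp4e*, *Nlrp4f* and *Nlrp9b* were fractional, as estimated counts are where reads are shared out among copies. Levels of these 5 are therefore uncertain to the extent that reads were shared.

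**Figure D1:**
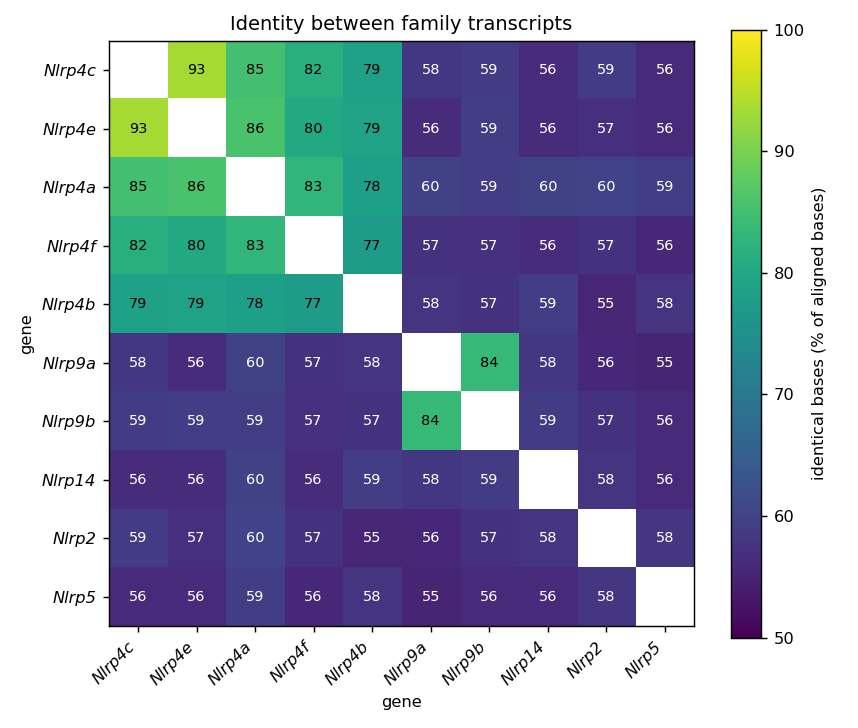
Percent of identical bases between every pair of the 10 family transcripts, 1 GENCODE transcript per gene, with both axes naming genes. The 5 Nlrp4 genes form a block of 77.4% to 93.2% identity, *Nlrp9a* and *Nlrp9b* share 83.5%, and *Nlrp14*, *Nlrp2* and *Nlrp5* match no member above 60.0%.

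Levels are given in FPKM, fragment counts scaled by transcript length and library size, which permit comparison between genes of different length. *Nlrp4f* was the most abundant member in 4 of 6 libraries. It stood at 8.41, 8.62 and 4.44 FPKM in OE-1, OE-2 and OE-D7, against 6.46, 5.68 and 4.85 FPKM in Con-1, Con-2 and Con-D7. Both OE libraries of pairs 1 and 2 lay above both Con libraries, and both D7 libraries lay below all others. *Nlrp4c* stood at 5.83, 11.14 and 4.81 FPKM in OE-1, OE-2 and OE-D7, against 2.09, 4.06 and 3.70 FPKM in Con-1, Con-2 and Con-D7. Every OE library exceeded every Con library, with the narrowest gap between OE-D7 at 4.81 FPKM and Con-2 at 4.06 FPKM. How many of all genes separate in this way was not counted. The weaker pattern of OE above Con within all 3 pairs held for 21.6% of genes with a mean of at least 0.5 FPKM. OE-2 was the highest of the 6 and Con-1 the lowest, and library 2 was above library 1 in both genotypes.

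*Nlrp14* stood at 2.32, 3.51 and 1.46 FPKM in OE-1, OE-2 and OE-D7, against 0.90, 1.89 and 1.60 FPKM in Con-1, Con-2 and Con-D7. OE-1 and OE-2 lay above all 3 Con libraries, and OE-D7 lay below 2 of them. *Nlrp9b* stood at 1.62, 2.13 and 3.99 FPKM in OE-1, OE-2 and OE-D7, against 1.00, 1.79 and 3.54 FPKM in Con-1, Con-2 and Con-D7. The genotypes overlapped, and the 2 D7 libraries were above the other 4. *Nlrp4a* stood at 0.84, 1.05 and 1.24 FPKM in OE-1, OE-2 and OE-D7, against 0.92, 1.26 and 1.97 FPKM in Con-1, Con-2 and Con-D7. It was the single one of these 5 that was lower in OE within all 3 pairs.

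The maternal effect gene *Nlrp5* was low, at 0.39, 0.42 and 0.31 FPKM in OE-1, OE-2 and OE-D7, against 0.29, 0.18 and 0.17 FPKM in Con-1, Con-2 and Con-D7. The 3 OE values lay above the 3 Con values, but they rest on 19 to 26 reads, against 10 to 18 in Con. The share of all genes that separate in this way was not counted. *Nlrp4e* had 0.05, 0.36 and 0.24 FPKM in OE-1, OE-2 and OE-D7, against 0.14, 0.15 and 0.17 FPKM in Con-1, Con-2 and Con-D7, with the genotypes overlapping. *Nlrp2* had at most 2 reads in a library, *Nlrp9a* at most 3.07 and *Nlrp4b* at most 1. A count of 0 at this depth allows up to 3 reads, or a CPM of at most 0.172, so no genotype difference was detectable for these 3. Summed over the 10 genes the family had 19.48, 27.26 and 16.51 FPKM in OE-1, OE-2 and OE-D7, against 11.88, 15.03 and 16.03 FPKM in Con-1, Con-2 and Con-D7. *Nlrp4f* and *Nlrp4c* made up 56.0% to 73.1% of the sum in OE and 53.3% to 72.0% in Con. The ratio of *Nlrp4c* to *Nlrp4f* was 0.693, 1.29 and 1.08 in OE-1, OE-2 and OE-D7, against 0.324, 0.715 and 0.763 in Con-1, Con-2 and Con-D7, and was higher in OE within each pair.

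**Figure D2:**
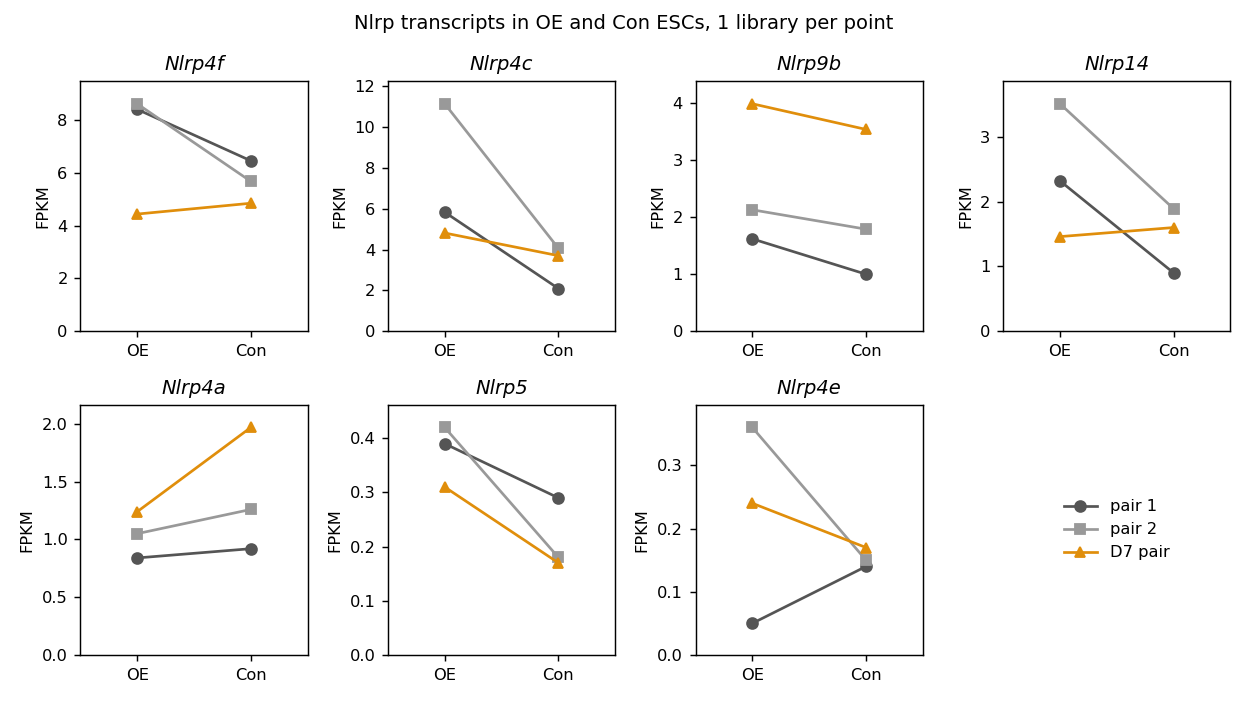
Level in FPKM (vertical axis, from 0, its own scale in each panel) of the 7 members with at least 10 reads, OE at the left and Con at the right, 1 point per library and 1 line per pair. For *Nlrp4c* the lines of pairs 1 and 2 drop steeply from OE to Con and that of the D7 pair less, while for *Nlrp9b* the D7 pair lies above both other pairs.

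The comparison of OE with Con ESCs asks which messages move with *Dppa3* overexpression. In libraries 1 and 2, *Nlrp4c* and *Nlrp14* were higher in OE once the pair was allowed for, and *Nlrp4f*, *Nlrp9b* and *Nlrp4a* did not pass the test. Tests were run with edgeR on all genes whose mean was at least 0.5 FPKM, and p-values were adjusted by the Benjamini-Hochberg method with a threshold of 0.05. Of the 10 members 5 passed the filter, and of all genes 13494. Without the pair in the model edgeR called 0 of 13494 genes (0%) and 0 of 5 members. The overexpressed *Dppa3* itself was not called there (log2 fold change 5.75, edgeR adjusted p = 0.430), so this fit can miss large differences. Before adjustment 58 genes were higher in OE and 4 lower with p under 0.05, and 1 member, *Nlrp4c*, was among the higher. DESeq2 without the pair called 2 genes, no member among them.

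With the pair in the model edgeR called 103 genes higher in OE (0.763% of those tested) and 17 lower, and 2 of the 5 members tested were among the higher. *Nlrp4c* averaged 8.49 ± 3.75 FPKM in OE and 3.08 ± 1.39 FPKM in Con (SD, n = 2 each). Within pairs its OE over Con ratio was 2.79-fold in pair 1 (95% counting interval 2.30 to 3.40) and 2.74-fold in pair 2 (2.39 to 3.17), so the 2 ratios were nearer to each other than either group's libraries were. These intervals cover counting error only, from estimated counts rounded to whole numbers. Reads were not tagged by molecule, so duplicate reads are not allowed for, nor is the sharing of reads among copies. The log2 fold change of *Nlrp4c* was 1.42 ± 0.45 (SE) without the pair (edgeR adjusted p = 1.00) and 1.42 ± 0.13 with it (edgeR adjusted p = 1.05e-05). With the pair it also passed in DESeq2 (adjusted p = 4.46e-06), where 0.237% of genes were called higher. The same held in limma on log2(FPKM + 0.5) (adjusted p = 0.00188, 0.926% of genes called higher) and in edgeR with no filter (adjusted p = 0.00626, 0.159% called higher). Each gene's spread in the fit with the pair is the disagreement of 2 within-pair ratios, moderated over all genes. Without the pair, leaving out Con-1, OE-1 or OE-2 gave 1.06, 1.79 and 0.94 for *Nlrp4c* (edgeR adjusted p of at least 0.999 in each). Leaving out Con-2 gave 1.92 (edgeR adjusted p = 0.00067), but the Con arm is then Con-1 alone, the lowest of the 6 libraries, and it is assumed to vary as the OE libraries do. Its rank by p among the 13494 genes was 6 with the pair and 36 without.

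*Nlrp14* averaged 2.92 ± 0.84 FPKM in OE and 1.40 ± 0.70 FPKM in Con (SD, n = 2 each). Its ratio was 2.58-fold in pair 1 (95% counting interval 1.89 to 3.53) and 1.86-fold in pair 2 (1.47 to 2.34). Its log2 fold change was 1.06 ± 0.21 with the pair (edgeR adjusted p = 0.0165) and 1.03 ± 0.45 without it (edgeR adjusted p = 1.00). The call held in limma with the pair (adjusted p = 0.0456) but not in DESeq2 with the pair (adjusted p = 0.860) or in edgeR with the pair and no filter (adjusted p = 0.148). The exact permutation test of 2 libraries against 2 cannot give a p below 0.333, so that test could call no member.

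*Nlrp4f* averaged 8.51 ± 0.15 FPKM in OE and 6.07 ± 0.55 FPKM in Con (SD, n = 2 each). It was 1.30-fold and 1.52-fold higher in OE in pairs 1 and 2, with a log2 fold change of 0.45 ± 0.13 that missed the threshold with the pair in the model (edgeR adjusted p = 0.170). *Nlrp9b* had a value of 0.42 ± 0.22 (adjusted p = 0.662) and *Nlrp4a* one of −0.22 ± 0.25 (adjusted p = 0.913) in the same edgeR fit. *Nlrp5* and *Nlrp4e* were tested only with no filter, where edgeR gave 0.76 ± 0.40 (adjusted p = 0.861) and 0.32 ± 0.69 (adjusted p = 0.964). Of the 5 members that passed the filter, 3 had both OE libraries above both Con libraries (*Nlrp4c*, *Nlrp4f* and *Nlrp14*), as did 11% of all genes tested. The median log2 fold change of the 5 was 0.45, beside 0.00 over all genes, with *Nlrp4a* at −0.22. The members were chosen with earlier results of these data known and some share reads, so this median is a description only.

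**Figure D3:**
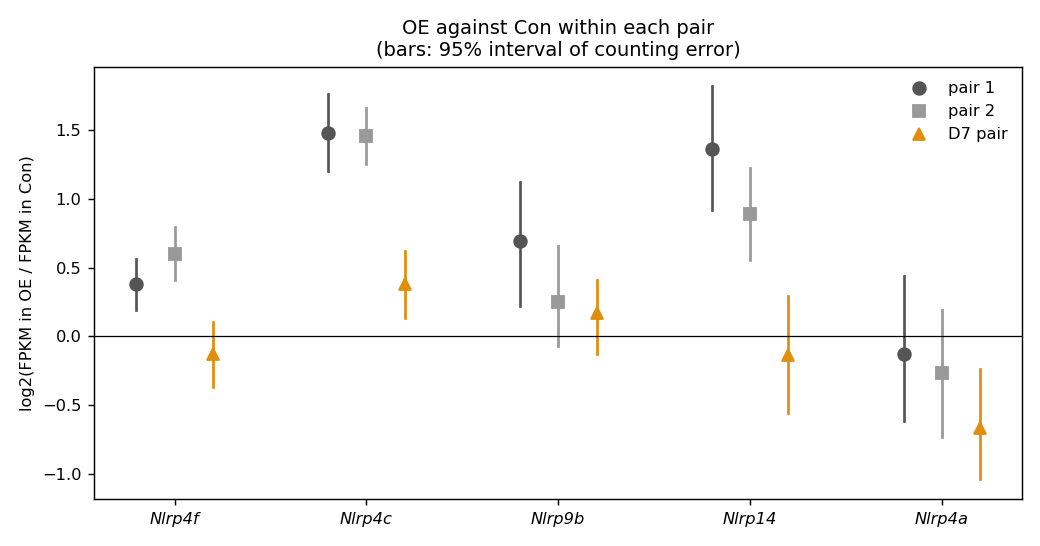
Ratio of OE to Con FPKM on the log2 scale (vertical axis) for the 5 members that passed the filter, 1 point per pair, with 95% Wilson intervals of the 2 counts. The intervals of *Nlrp4c*, *Nlrp14* and *Nlrp4f* lie above 0 in pairs 1 and 2, and those of *Nlrp14*, *Nlrp4f* and *Nlrp9b* include 0 in the D7 pair.

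For *Nlrp4c*, *Nlrp14*, *Nlrp4f* and *Nlrp9b*, but not *Nlrp4a*, the D7 pair gave an OE over Con ratio nearer to 1 than the other pairs did. How many of all genes do so was not counted. *Nlrp4c* was 1.30-fold higher in OE there (95% counting interval 1.10 to 1.54), below the interval of each other pair. *Nlrp14* was at 0.913-fold (0.681 to 1.22) and *Nlrp4f* at 0.915-fold (0.775 to 1.07), so both were lower in OE-D7 than in Con-D7 by less than counting error. *Nlrp4a* was at 0.629-fold (0.486 to 0.846), with pairs 1 and 2 at 0.913-fold and 0.833-fold. *Nlrp9b* was 1.62-fold higher in OE in pair 1, 1.19-fold in pair 2 and 1.13-fold in the D7 pair. Its counting intervals overlapped between pair 2 (0.954 to 1.58) and the D7 pair (0.916 to 1.33). The difference between the OE effect of the D7 pair and that of the other pairs, tested as an interaction in edgeR with the pair in the model, was −1.07 ± 0.24 on the log2 scale for *Nlrp4c* (adjusted p = 0.0199). It passed in 70 genes in this direction (0.507%), and *Nlrp4c* was the single one of 5 members. As the D7 arm is 1 pair, the spread behind this test comes from pairs 1 and 2 alone, moderated over all genes. DESeq2 with the pair did not call it (−1.05, adjusted p = 1.00), nor did edgeR without the pair (adjusted p = 1.00). The values for *Nlrp14* and *Nlrp4f* were −1.21 ± 0.38 (edgeR adjusted p = 0.127) and −0.60 ± 0.23 (edgeR adjusted p = 0.262).

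Over all 3 pairs with the pair in the model, edgeR called 0 genes higher in OE (0%) and 1 lower. Even *Dppa3*, at a log2 fold change of 4.35, was not called in this fit (edgeR adjusted p = 0.118). Before adjustment 607 genes were higher and 573 lower with p under 0.05, and 2 members, *Nlrp4c* and *Nlrp14*, were among the higher. The log2 fold change of *Nlrp4c* was 1.06 ± 0.21 (edgeR adjusted p = 0.213), and DESeq2, which called 58 genes higher (0.42%), called it (adjusted p = 0.000896). *Nlrp14* had 0.67 ± 0.27 (edgeR adjusted p = 0.552). OE was above Con in all 3 pairs for 2 of the 5 members that passed the filter, *Nlrp4c* and *Nlrp9b*, beside 21.6% of all genes, and below in all 3 for *Nlrp4a*, beside 9.86%. An exact sign-flip test of 3 pairs cannot give a p below 0.25.

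Both D7 libraries lay above the other 4 for *Nlrp9b* and below them for *Nlrp4f*, and neither difference passed the edgeR threshold. *Nlrp9b* was 2.13-fold above the mean of OE-1 and OE-2 in OE-D7 and 2.54-fold above that of Con-1 and Con-2 in Con-D7. The log2 fold change was 1.17 ± 0.27 (edgeR adjusted p = 0.0534), and DESeq2 called it (adjusted p = 0.00601) together with 10.9% of all genes as higher. *Nlrp4f* was at 0.521-fold in OE-D7 and 0.799-fold in Con-D7 of the mean of the same genotype, a log2 fold change of −0.63 ± 0.20 (edgeR adjusted p = 0.103). *Nlrp4a* had 0.67 ± 0.26 (edgeR adjusted p = 0.155). edgeR called 0 of the 5 members and 935 genes higher (6.77%) and 422 lower (3.06%), and before adjustment 2 members were higher and 1 lower with p under 0.05, beside 2258 and 1864 of the 13809 genes. Without Con-2 both passed, *Nlrp9b* at 1.31 (adjusted p = 0.0299) and *Nlrp4f* at −0.74 (adjusted p = 0.0441), and the count of genes called ran from 0 without OE-D7 to 2533 without Con-2.

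For *Nlrp4c* and *Nlrp14* the D7 libraries stood low in OE only. *Nlrp4c* in OE-D7 was at 0.567-fold of the OE mean and in Con-D7 at 1.20-fold of the Con mean, and *Nlrp14* was at 0.501-fold and 1.15-fold. The log2 fold changes over both genotypes were −0.25 ± 0.41 (edgeR adjusted p = 0.718) and −0.36 ± 0.43 (edgeR adjusted p = 0.604). For *Nlrp4c*, OE-D7 at 4.81 FPKM lay nearer to OE-1 (5.83 FPKM) than to OE-2 (11.14 FPKM), and without OE-2 its log2 fold change was 0.03. Of all genes 23.6% had both D7 libraries above the other 4, as *Nlrp9b* did, and 23.6% below, as *Nlrp4f* did. Of the fibroblast list *Col1a1* (129.05 FPKM in OE-D7 and 37.98 FPKM in Con-D7, against at most 1.81 FPKM elsewhere), moved with the same libraries. In edgeR 4 of the list's 6 tested members were higher in D7 (*Col1a1*, *Col1a2*, *Col3a1* and *Postn*), beside 6.77% of all genes tested. *Thy1* had a log2 fold change of −0.95 (edgeR adjusted p = 0.0593), and no member of the list was at 0 in every library. Their part in these values was not tested. Because both D7 libraries belong to 1 pair, the p-values of this comparison take no account of what a pair shares. In bulk RNA, fewer cells of a type and less RNA per cell cannot be told apart.

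**Figure D4:**
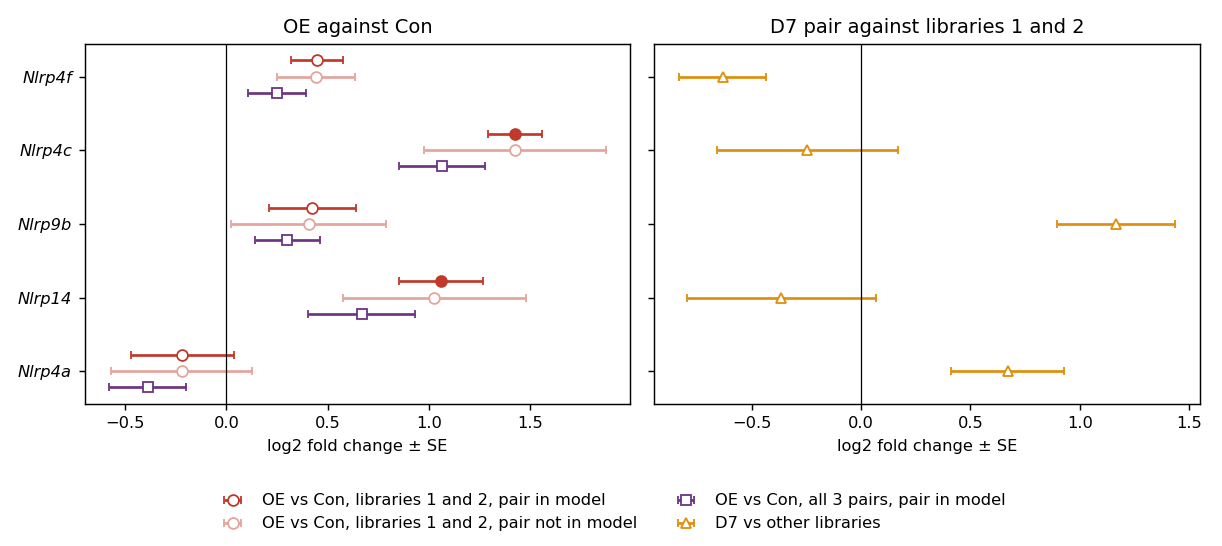
Log2 fold change ± SE (horizontal axis) of the 5 members that passed the filter, OE over Con at the left for 3 fits and D7 over the other libraries at the right. Filled symbols passed the edgeR threshold of 0.05, which *Nlrp4c* and *Nlrp14* did with the pair in the model of libraries 1 and 2, and no other value in the plot did.

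Of the partners of Nlrp5 in the subcortical maternal complex, 4 stood above *Nlrp5* in every library, and *Padi6* did not. *Ooep* stood between 45.36 and 61.92 FPKM over the 6 libraries, *Khdc3* between 9.02 and 31.22, *Zbed3* between 9.42 and 13.99, *Tle6* between 4.35 and 9.10 and *Padi6* between 0.12 and 0.54. Of the 4 tested, none passed in OE against Con with the pair in the model (median log2 fold change 0.06, beside 0.00 over all genes), and none passed in D7 against the other libraries, where *Khdc3* had −1.26 ± 0.41 (edgeR adjusted p = 0.108). Among 20 other genes of the NLR superfamily 19 were in the table and 10 tested, and none passed in OE against Con, with a median of 0.24. In D7, 1 of 9 tested was lower, the inflammasome sensor *Nlrp1a*, at 4.29 and 4.67 FPKM in OE-D7 and Con-D7, against 9.72 to 12.98 FPKM in libraries 1 and 2 (log2 fold change −1.29 ± 0.19, edgeR adjusted p = 0.0196). Of 9 inflammasome genes 4 could be tested and none passed in either comparison. The most abundant were the DNA sensor *Aim2*, at 9.53 to 13.06 FPKM, and *Nek7*, at 9.16 to 10.98 FPKM. Of 35 further oocyte genes 7 could be tested and none passed in OE against Con, where the most abundant, *Uchl1* and *Tcl1*, had −0.15 and −0.07. Of 5 primordial germ cell markers 1 was higher in OE with the pair in the model, beside 0.763% of all genes: the germ cell RNA-binding protein gene *Dazl*. It stood at 13.89, 29.51 and 27.07 FPKM in OE-1, OE-2 and OE-D7, against 7.65, 17.98 and 19.33 FPKM in Con-1, Con-2 and Con-D7 (log2 fold change 0.74 ± 0.10 in libraries 1 and 2, edgeR adjusted p = 0.000873). Its direction in pairs 1 and 2 was that of *Nlrp4c* and *Nlrp14*. *Dazl* did not pass in edgeR without the pair, nor over all 3 pairs with it (edgeR adjusted p = 0.0936). In the fit that called it, *Prdm1* had 0.15, *Tfap2c* 0.08, *Ddx4* −0.05 and *Nanos3* −0.13, and none of these passed. In D7 *Tcl1*, an Akt coactivator stored by oocytes, was lower (log2 fold change −0.71 ± 0.15, edgeR adjusted p = 0.0423). Of 15 genes of DNA methylation and germline gene silencing none passed in OE against Con, whereas in D7 the methylation genes *Dnmt3l* (−1.20), *Tet1* (−1.40) and *Tet2* (−1.30) were lower and *Dnmt3a* (0.69) higher. Of all genes tested, edgeR called 3.06% lower and 6.77% higher in D7.

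The genes around *Nlrp4c* and *Nlrp14* did not pass the test in OE against Con. For each, the 3 nearest genes with a mean of at least 0.5 FPKM were taken on either side. The 6 around *Nlrp4c*, 26.3 to 947 kb away, had log2 fold changes from −0.23 to 0.73, the highest for *Zscan5b* at 0.73 ± 0.43 (edgeR adjusted p = 0.732). The nearest, *Zfp787*, was at 0.12 ± 0.20. The 6 around *Nlrp14*, 11.3 to 1369 kb away, had −0.10 to 0.11, and *Rbmxl2*, the nearest, was at −0.05 ± 0.09.

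**Figure D5:**
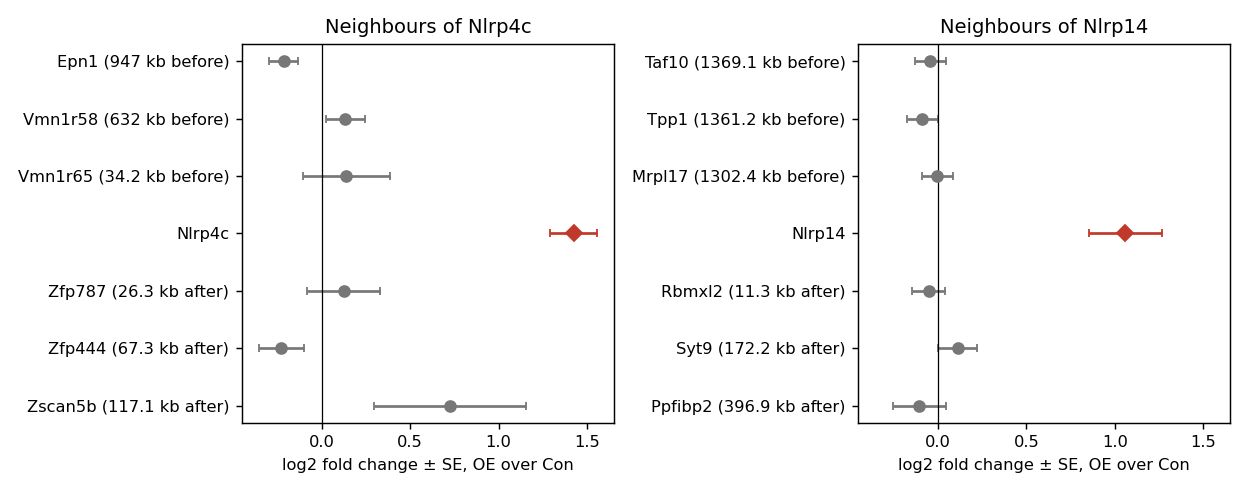
Log2 fold change ± SE of OE over Con in libraries 1 and 2, with the pair in the model (horizontal axis), for *Nlrp4c* and *Nlrp14* (diamonds) and the 3 nearest genes with a mean of at least 0.5 FPKM on either side (circles, ordered along the chromosome, distance in kb). The 2 members stand at 1.42 and 1.06, and the 12 neighbours between −0.23 and 0.73.

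*Nlrp4c* and *Nlrp14* had like profiles over the 6 libraries, with a Pearson r of 0.956 on log2(FPKM + 0.5). The other pairs of members ranged from −0.705 (*Nlrp4a* with *Nlrp4f*) to 0.714 (*Nlrp4a* with *Nlrp9b*). Among 12565 genes with a mean of at least 1 FPKM, those most like *Nlrp4c* were *Shprh* (r = 0.994), *Xlr5a* (0.985), *Tm6sf2* (0.983), *Scml2* (0.978) and *Ptprj* (0.973). Of these *Shprh* spanned only 8.01 to 9.44 FPKM, whereas *Xlr5a* spanned 1.48 to 14.71. The genes most like *Nlrp14* were *Cmtr1* (0.996), *Gm527* (0.983), *Ccdc141* (0.981), *Eaf2* (0.978) and *Tspyl4* (0.974), of which *Cmtr1* spanned 12.0 to 14.57 FPKM. The 6 points share pairs, and the highest of so many correlations are given as a description.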

How the data were processed

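Total RNA was extracted with TRIzol and sequenced on a BGISEQ-500. The authors aligned reads to mm10 with Bowtie2 and assigned them to genes with RSEM, and the submitters' notes also name HISAT and GRCm38.p6. Tool versions are not given in the sources used here. The deposited table holds estimated counts, which were rounded to whole numbers before testing, and FPKM made by the authors from the same reads; the D7 count columns are headed as average read counts. The study describes its results in general as coming from independent experiments but does not say which of these libraries were separate cultures, so the spread behind each p-value may be technical.

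Genes with a mean of at least 0.5 FPKM were tested with edgeR 4.0.16 (quasi-likelihood test, TMM factors) without a pair term. As same-numbered libraries deviated together (Pearson r of 0.859, 0.732 and 0.873 over 12565 genes; −0.761 to −0.017 for other pairings), the numbers were taken to pair them, and the fit with the pair as a block is given beside it. Deviations were taken from each genotype's mean over its 3 libraries. This by itself draws other pairings below 0, so the contrast with them is in part built in. The D7 difference also enters every deviation. DESeq2 1.42.0, limma 3.58.1 on log2(FPKM + 0.5), other scalings and filters, and leaving out each library were alternatives. The SE given with edgeR values was derived from the fold change and the F value of the test, so it is not independent of the p-value. The members, gene lists and genes named were chosen with earlier results of these data known. All members were named, from each pathway list the genes that passed or else the most abundant 2, 5 genes most like each called member, and 3 neighbours on each side. Transcript identity used GENCODE vM21 and promoters used RefSeq on GRCm38.p6.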

Additional observations from a re-analysis of the deposited data

Results flagged for a closer look

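*Nlrp4c* differed in its OE effect between the D7 pair and libraries 1 and 2 by −1.07 on the log2 scale in edgeR with the pair in the model (adjusted p = 0.0199), and the same difference was not called by DESeq2 with the pair (adjusted p = 1.00). *Nlrp4f* and *Nlrp14* were higher in OE in pairs 1 and 2 and lower in OE in the D7 pair, where log2((FPKM + 0.5) ratios) were −0.12 and −0.10. In edgeR with the pair these differences had adjusted p = 0.262 for *Nlrp4f* and 0.127 for *Nlrp14*. The *Dppa3* ratio of OE to Con was also smaller in the D7 pair, 4.99-fold against 45.8-fold and 71.7-fold, and its part in these values was not tested.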

How the results depend on the processing

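Counts of genes called depended on the replicate block, the tool and single libraries. In libraries 1 and 2 of OE against Con, 0 genes were called without it, 120 with it, 32 with it and no filter, 34 with it in DESeq2 and 129 with it in limma. DESeq2 without it called 2. Over all 3 pairs the counts were 0 without it, 1 with it, 19 with it and no filter, 69 with it in DESeq2 and 3 with it in limma, and DESeq2 without it called 7. For the difference between the OE effects of the D7 pair and the other pairs, the counts were 0 without the block, 199 with it, 188 with it and no filter, 22 with it in DESeq2 (chosen after seeing the data) and 2 in DESeq2 without it. For D7 against the other libraries, edgeR called 1357 and DESeq2 2494, and no block could be fitted because D7 is replicate 3 of both genotypes. With 1 library fewer the counts ran from 1 to 90 in libraries 1 and 2 and from 0 to 2533 for D7. With 1 pair left out of the blocked fit of 3 pairs, chosen after seeing the data, they were 0 and 6.

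Members changed sign where their values were small. Without 1 library, *Nlrp4c* in D7 against the other libraries ran from −0.78 to 0.27, and without OE-2 it was 0.03. *Nlrp14* ran from −0.96 to 0.20, positive only without OE-D7. *Nlrp4e*, with few reads, had an OE effect in the D7 pair that differed by 0.0128 with the block and no filter, opposite in sign to the fit without the block. Why these values moved was not tested. *Nlrp4c* and *Nlrp14* stayed positive in OE against Con under every alternative run on libraries 1 and 2 and on all 3 pairs. A positive ratio in every pair was found for 3 of 7 members, *Nlrp4c*, *Nlrp5* and *Nlrp9b*. It held with a pseudocount of 0.5, of 0.1 and on TMM-scaled counts, which all rest on the same reads. Of all genes that passed the filter, 21.6% had OE above Con in FPKM in all 3 pairs, and *Nlrp5* did not pass the filter. Depth limits the 5 members under 0.5 FPKM on average, 3 of which had fewer than 10 reads in every library.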
